A study of Arabidopsis thaliana with 10 samples.

Results

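Acetylation of histone H3 at lysine 27 (H3K27ac) was compared between inflorescence tissue before floral induction (stage 0, S0) and tissue taken 4 days after the first induction (stage 4, S4). Each peak of the S0 list and of the S4 list was given to the protein-coding gene with the nearest transcription start site (TSS), and genes were then sorted into those with a peak at S0 only, at S4 only or at both stages. For genes with a peak at both, the strongest peak was placed on a scale of 0 to 100, its percentile of fold enrichment within the list of that stage, and the change is the S4 percentile minus the S0 percentile. In all, 11592 genes had a peak in at least 1 of the 2 lists, out of 12246 genes with a peak at any of the 4 stages of the series and 27444 protein-coding genes annotated.

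All plants carried the same genotype, pAP1::AP1-GR ap1 cal in the Ler background. In this line the AP1 and CAL genes are mutant, so that the shoot keeps making inflorescence meristems, and a fusion of AP1 to the glucocorticoid receptor (GR) is made from the AP1 promoter and enters the nucleus when dexamethasone is given. S0 was collected before the first dose and S4 after daily doses, so that stage and dexamethasone treatment cannot be told apart. The series holds 2 replicates at each of S0, S2, S4 and S8 (days 0, 2, 4 and 8) and 2 input libraries labelled with stages 2 and 4, and the peaks of a stage were called on its pooled replicates. Each stage is therefore a single list with no spread between replicates, and no comparison below has a test. The tissue is whole inflorescence, so that a mark carried by fewer cells and a weaker mark in each cell cannot be told apart. Reads of the transgene and of the endogenous AP1 locus are not separated.

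H3K27ac is placed by histone acetyltransferases and removed by deacetylases, and in plants it lies mostly just downstream of the TSS of transcribed genes. When AP1 becomes active, the inflorescence meristems turn into floral meristems. Genes that hold the inflorescence state, among them SVP, AGL24 and SOC1, are known targets of repression by AP1, and the floral organ identity genes come on later, as the whorls of the flower are specified.

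The S0 list held 11583 peaks on 10834 genes and the S4 list 9114 peaks on 8816 genes. The depth of the libraries is not given by the lists. The lowest −log10 q was 10.06 at S0 and 10.007 at S4, and the median peak width was 749 bp and 769 bp. The most common fold enrichment was shared by 1.45% of S0 peaks and 1.04% of S4 peaks, so that some genes have the same percentile. The defining markers of the floral meristem and its organs were only partly present. AP1 had a peak at both stages and LFY at S4, while WUS and CLV3 of the stem cell niche, UFO, PI and AG had none at any stage. No peak lay on the 3 pollen and 4 seed markers examined. Of 6 root markers, SHR had a peak at both stages and SCR at S0 only. SCR and SHR also act in the shoot. Of 5 leaf markers, 3 had a peak at both stages and moved in both directions, RBCS1A from 42.0 to 83.2, LHCB1.3 from 45.5 to 11.8 and CAB4 from 31.1 to 15.5. Their part in the results below was not tested.

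The following stretches of the genome, centred on the peak summits, are shown because they belong to the regulators that lost, gained or changed a peak between S0 and S4. They were read from the RefSeq sequence of the TAIR10.1 assembly on the strand of the gene, 5′ to 3′, and the capitals mark 11 bases around each summit. SVP, AGL24 and STM had a peak at S0 and none at S4. FUL had a peak at both stages with a lower percentile at S4. LFY, SEP1 and NUB had a peak at S4 and none at S0, and AP1 had one at both with a higher percentile at S4. For AP1, the run begins at the coding sequence, since the annotated UTR was left out.
SVP (chr2:9580443-9580563, plus strand, coding exon, S0 summit): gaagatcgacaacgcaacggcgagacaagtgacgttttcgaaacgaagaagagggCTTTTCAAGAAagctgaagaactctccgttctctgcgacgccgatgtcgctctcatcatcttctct
AGL24 (chr4:12673480-12673600, minus strand, coding exon, S0 summit): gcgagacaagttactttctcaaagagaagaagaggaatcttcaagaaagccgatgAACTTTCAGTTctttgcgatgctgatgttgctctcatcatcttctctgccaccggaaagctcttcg
STM (chr1:23060682-23060802, minus strand, coding exon, S0 summit): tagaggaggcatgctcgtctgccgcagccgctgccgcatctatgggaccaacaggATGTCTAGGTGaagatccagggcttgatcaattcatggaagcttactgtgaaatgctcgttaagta
FUL (chr5:24505750-24505897, minus strand, coding exon and intron, S0 summit then S4 summit): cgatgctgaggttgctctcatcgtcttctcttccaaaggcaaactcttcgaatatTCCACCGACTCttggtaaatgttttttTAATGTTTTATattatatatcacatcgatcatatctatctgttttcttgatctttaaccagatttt
LFY (chr5:24845324-24845444, plus strand, coding exon, S4 summit): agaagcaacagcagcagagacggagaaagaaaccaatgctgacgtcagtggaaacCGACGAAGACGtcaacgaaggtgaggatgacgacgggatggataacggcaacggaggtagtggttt
SEP1 (chr5:5153457-5153577, minus strand, intron, S4 summit): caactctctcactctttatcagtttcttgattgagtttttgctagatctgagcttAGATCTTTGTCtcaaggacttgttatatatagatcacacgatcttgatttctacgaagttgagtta
NUB (chr1:4599176-4599296, plus strand, downstream of the gene, S4 summit): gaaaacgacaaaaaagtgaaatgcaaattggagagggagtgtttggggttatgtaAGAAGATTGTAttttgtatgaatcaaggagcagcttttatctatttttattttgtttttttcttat
AP1 (chr1:25985928-25986102, minus strand, coding exon, S4 summit then S0 summit): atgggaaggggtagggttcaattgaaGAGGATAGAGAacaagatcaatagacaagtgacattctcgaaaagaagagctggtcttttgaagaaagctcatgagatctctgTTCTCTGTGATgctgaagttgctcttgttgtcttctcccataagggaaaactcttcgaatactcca

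Most genes with a peak had it at both stages. There were 8058 such genes, 69.5% of the 11592 (95% Wilson interval 68.7 to 70.3%). A further 2776 genes (23.9%) had a peak at S0 only and 758 (6.54%) at S4 only. All intervals are over genes and cover counting error only. The S0 list is the longer, and the balance of these classes depended on how the lists were cut. When the S0 list was shortened to the 9114 peaks with the highest −log10 p, 1597 genes were S0-only and 1635 were S4-only, a near balance that lists of equal length bring with them. When both lists were instead limited to a −log10 q of at least 20, there were 3576 and 496. This cut left lists of unequal length, 7985 peaks at S0 and 4780 at S4. Some genes of a single stage lay beside a peak of the other stage that had been given to a neighbour, 154 of the S0-only genes (5.55%) and 121 of the S4-only genes (16.0%).

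The genes of a single stage had weak and narrow peaks. The S0-only genes had a median S0 percentile of 26.4 (quartiles 12.9 and 44.9) and the S4-only genes a median S4 percentile of 23.7 (10.9 and 41.4), whereas genes with a peak at both had medians of 61.8 at S0 and 53.9 at S4. The median peak was 585 bp wide on S0-only genes and 601 bp on S4-only genes, against 822 bp at S0 and 790 bp at S4 for the shared genes. Of genes at or below percentile 25 at S0, 45.5% had a peak at S4 (43.5 to 47.5%), and this share was 66.4%, 85.3% and 96.0% in the following bins of 25 points. In the other direction, 81.6% of genes in the lowest bin at S4 had a peak at S0, and 98.4% of those in the highest bin. A −log10 q of at least 20 was found for 1154 S0-only genes at S0 (41.6%) and 134 S4-only genes at S4 (17.7%). Among shared genes the share was 81.8% at S0 and 56.3% at S4.

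**Figure D1:**
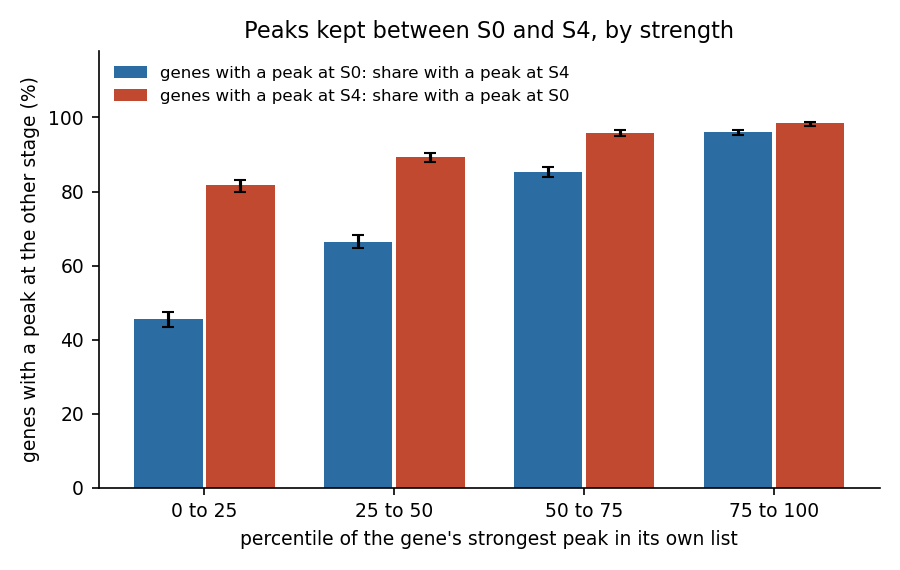
Share of genes with a peak at the other stage (%, vertical axis) by the percentile of the gene's strongest peak in its own list (horizontal axis, in bins of 25 points); blue bars are genes with a peak at S0, red bars genes with a peak at S4, and error bars are 95% Wilson intervals over genes. The share climbs from 45.5% to 96.0% for S0 genes and from 81.6% to 98.4% for S4 genes.

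The median distance from the TSS to the summit was 368 bp for S0-only genes, 342 bp for S4-only genes and, for shared genes, 384 bp at S0 and 379 bp at S4. It fell in a coding exon in 47.8% of S0-only genes (45.9 to 49.6%), 44.99% of S4-only genes (41.5 to 48.5%) and 57.7% of shared genes at S0 (56.6 to 58.8%). It fell in an intron in 26.6% (24.97 to 28.3%), 31.7% (28.5 to 35.1%) and 21.8% (20.9 to 22.7%). Coding exons thus held fewer and introns more of the summits of single-stage genes than of shared genes, with intervals that do not overlap. Repeated sequence, where short reads cannot be placed with certainty, held the strongest peak of 2.27% of S0-only, 0.792% of S4-only and 1.38% of shared genes. The median gene length was 2562, 2485 and 2464 bp, against 2078 bp for all protein-coding genes.

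The lists of S2 and S8 were not used to form the classes. At S2, 32.9% of S0-only genes had a peak (31.1 to 34.6%) and 46.2% of S4-only genes did (42.7 to 49.7%). At S8 the shares were 39.2% (37.4 to 41.1%) and 55.1% (51.6 to 58.7%). Both S2 and S8 peaks were more frequent on S4-only genes, with intervals that do not overlap, and both were far below the 84.0% and 86.9% of shared genes. A peak at neither S2 nor S8 was found for 1338 S0-only genes (48.2%) and 237 S4-only genes (31.3%). A peak at S8 and none at S2 was found for 526 S0-only genes (18.9%), 171 S4-only genes (22.6%) and 826 shared genes (10.3%). The share was thus no higher in S0-only than in S4-only genes.

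**Figure D2:**
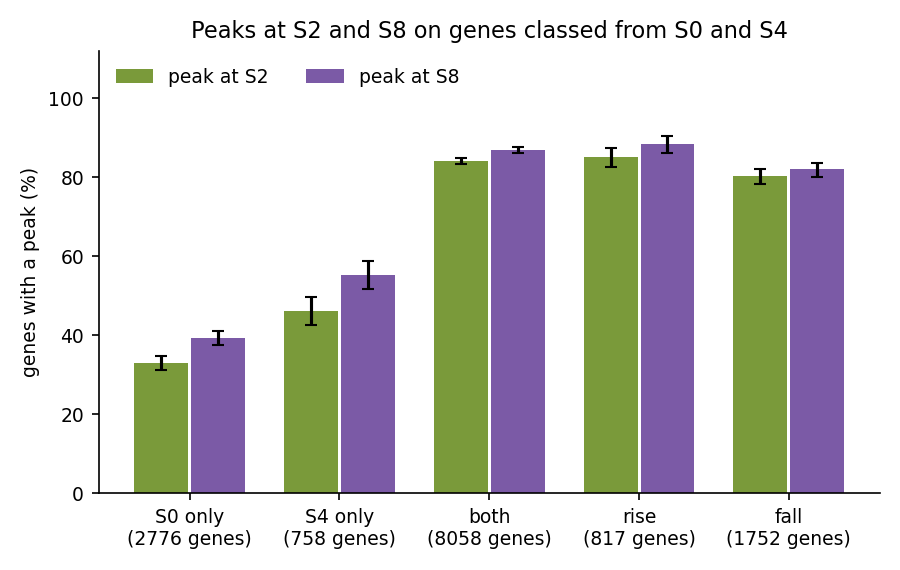
Share of genes with an H3K27ac peak at S2 (green) and S8 (purple), in %, for the genes classed from the S0 and S4 lists; error bars are 95% Wilson intervals over genes. S0-only genes have the lowest shares (32.9% and 39.2%) and S4-only genes lie between them and the shared genes.

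Among the 8058 shared genes, the S0 and S4 percentiles had a Pearson r of 0.58 across genes, which share the input control and are not independent. The median change was −4.46 points. A change of 25 points or more is called a rise or a fall here. There were 817 rises (10.1% of shared genes) and 1752 falls (21.7%), so that 68.2% of the calls were falls. When the 8058 genes were ranked among themselves, which sets the mean change to 0, there were 1280 rises and 1268 falls, and falls were 49.8% of the calls. With the S0 list shortened to the length of the S4 list, which also works toward a balance, there were 1151 of each. After the ranking among shared genes, 812 of the 817 rises and 1260 of the 1752 falls were still past the limit. Ranked by −log10 p in place of fold enrichment, 679 rises and 1551 falls were past it in the same direction. Just inside the limit lay AT1G72740 (29.3 to 54.4, a change of 25.03) and GGP3 (43.8 to 18.8, −25.02), and just outside it MRE11 (1.21 to 26.2, 24.9994) and AT3G06240 (44.6 to 19.6, −24.9978).

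**Figure D3:**
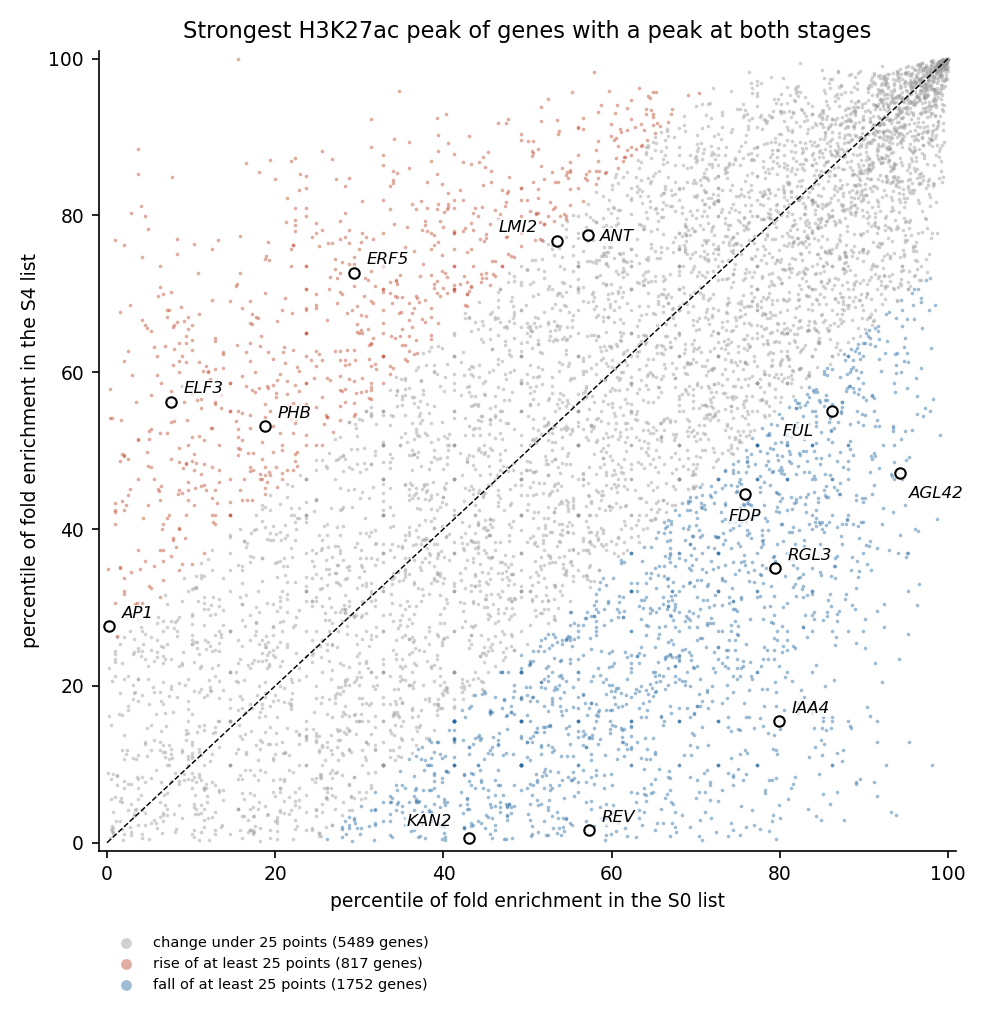
Percentile of fold enrichment of each gene's strongest peak in the S0 list (horizontal axis) and in the S4 list (vertical axis) for the 8058 genes with a peak at both stages; red points are the 817 rises, blue points the 1752 falls, grey points smaller changes, and open circles named regulators. AGL42, FUL, FDP, REV, KAN2, IAA4 and RGL3 lie in the blue field, and ELF3, PHB, ERF5 and AP1 in the red one.

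At S2 and S8, which had no part in these calls, the rise and fall genes were close to each other. Of genes with a peak at S2, the median S2 percentile was 49.0 for the rises (quartiles 27.5 and 68.9) and 45.6 for the falls (24.7 and 65.3). At S8 the medians were 51.4 and 46.1. Both groups lay below the medians of all shared genes, 57.5 at S2 and 59.1 at S8. The difference between the groups was therefore large at S0 (27.7 against 69.3) and S4 (68.3 against 23.8), where the rule sets it, and small at the other stages.

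**Figure D4:**
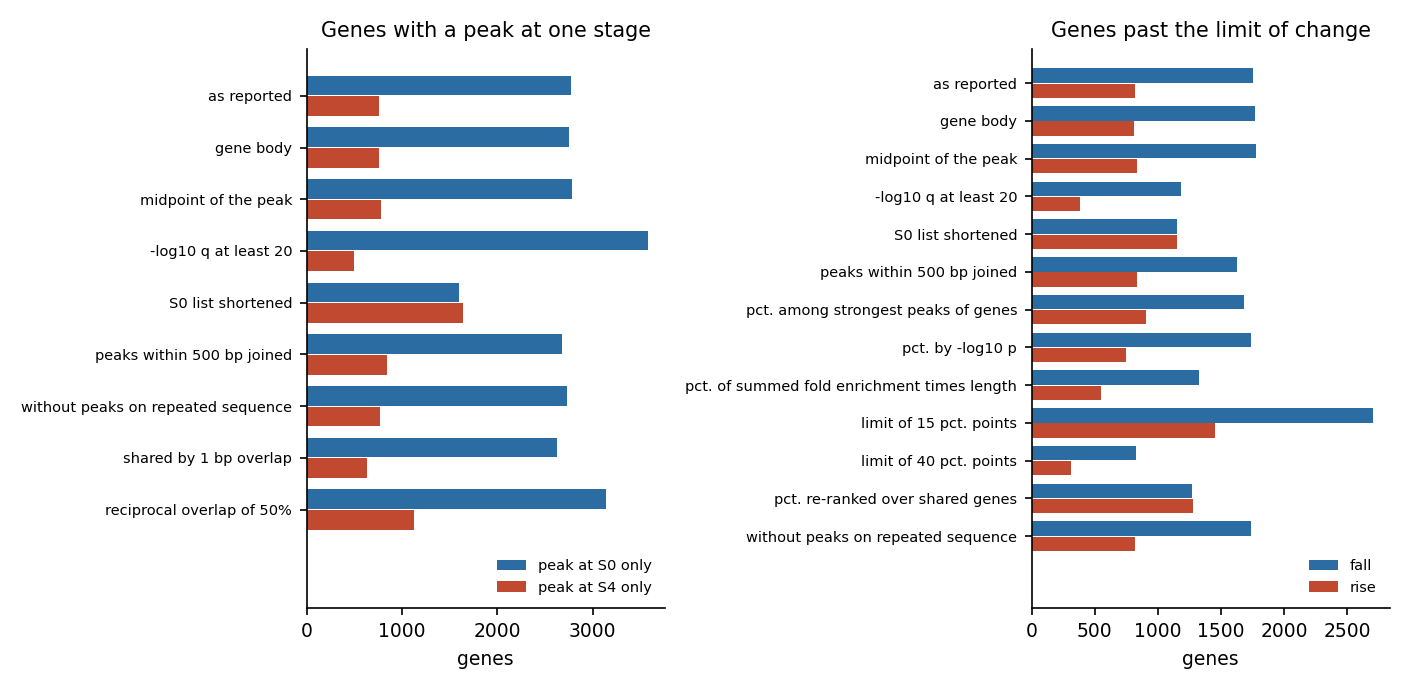
Number of genes (horizontal axis) with a peak at S0 only or S4 only (left) and with a fall or a rise past the limit (right), as reported and under each other setting of the processing. The excess of S0-only genes and of falls is absent when the S0 list is shortened, and the excess of falls is absent when shared genes are ranked among themselves.

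The genes that hold the inflorescence meristem and time its transition to flowering had lower values at S4 in every case where a value could be compared. Of 13 list members, 8 had a peak at S0, 4 of these also at S4, and none at S8. The S0-only members were thus 4 of 8, against 23.9% of all genes with a peak. The members of this list and of the lists below were chosen with earlier results of these data known. The shares therefore describe the lists and are not a test of enrichment. The 4 members with a peak at S0 only were SVP (S0 percentile 21.4), AGL24 (30.4), SOC1 (32.8) and AGL71 (10.4). SVP, AGL24 and SOC1 encode MADS-domain factors that integrate flowering signals and keep inflorescence identity, and AGL71 is a close relative of SOC1. All 4 S0 peaks were of low to middling rank, and SVP and AGL71 still had a peak at S2 (56.4 and 35.7). AGL71 lost its S0 peak when the S0 list was shortened, and the other 3 members did not.

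The 4 members with a peak at both stages all fell, where 21.7% of all shared genes did. AGL42, another SOC1 relative, went from 94.3 to 47.1. FUL, a MADS-domain gene of the AP1 clade that promotes the floral transition, went from 86.3 to 55.1. FD, the bZIP partner of the florigen FT, had the same pair of values, 86.3 and 55.1, because its peaks have the same fold enrichment as those of FUL. Its paralogue FDP went from 75.8 to 44.5. At S2, AGL42 (95.4), FUL (89.5) and FDP (86.4) were still high, while FD was at 47.2. The falls of FUL, FD and FDP shrank to 20.3, 23.5 and 20.6 points, inside the limit, when fold enrichment was summed over the length of the peaks. FDP was also just inside the limit with the shortened S0 list. AGL72, AGL14, AGL19, AGL79 and TFL1 had no peak at any of the stages.

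In the list of floral meristem identity, 3 genes had a peak at both stages. Of these, 1 rose, against 10.1% of all shared genes, and none fell past the limit. Of 9 members, 4 had a peak at S4 and 3 at S0, where 8816 and 10834 of all 27444 protein-coding genes did. LFY, the transcription factor that specifies the floral meristem together with AP1, had a peak at S4 and none at S0. Its S4 percentile was 8.4, with a peak of similar rank at S2 (9.8) and none at S8. AP1 itself rose from 0.276 to 27.6, with 0.453 at S2 and 57.8 at S8. By −log10 p it went from 22.9 to 73.0, and the change in fold enrichment percentile was 23.8, inside the limit, after ranking among shared genes. Its peak widened from 745 to 1440 bp. LMI2, a MYB gene downstream of LFY, went from 53.5 to 76.8, a change of 23.3 that is inside the limit and that became 34.2 after ranking among shared genes. BOP2, a co-regulator that acts at organ boundaries, went from 24.9 to 13.6, a change of −11.3 that is inside the limit. CAL, UFO, LMI1, PUCHI and BOP1 had no peak at any stage. CAL is mutant in this line.

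Floral organ identity genes were almost without a peak at either stage. Of 17 members, 2 had a peak at S0 and 2 at S4, where 10834 and 8816 of all 27444 protein-coding genes did. SEP1 (AT5G15800), a MADS-domain cofactor of the organ identity factors, had a peak at S4 only, at percentile 15.5, and reached 88.6 at S8. SEP4, a cofactor that acts from the meristem stage on, had a peak at both stages, at 49.2 and 41.8, and its change turned to 29.9 when fold enrichment was multiplied by peak length and summed over the gene. AGL6 had a peak at S0 only (18.5), which was lost with the shortened S0 list. AP3, SEP2 and SEP3 had a peak at S8 alone. PI, AG, AGL13, STK, SHP1, SHP2, SUP, RBE, CRC, SPL/NZZ and PTL had none at S0, S2, S4 or S8. A locus without a peak may carry signal below the limit of the peak lists.

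**Figure D5:**
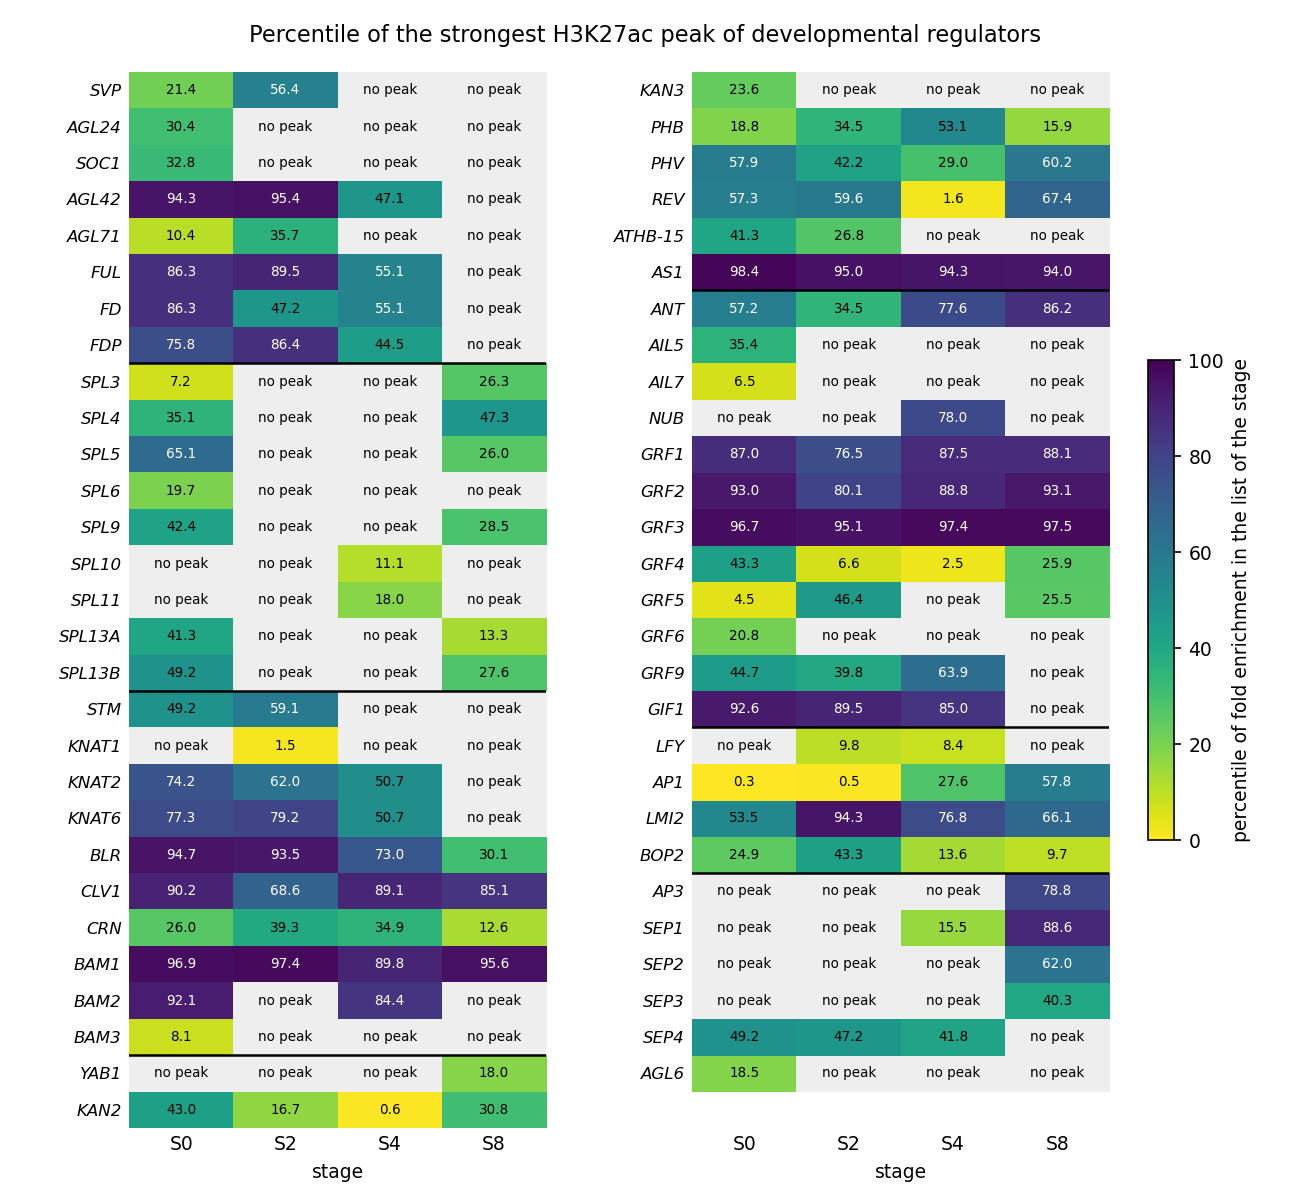
Percentile of fold enrichment of the strongest peak (colour and number) at S0, S2, S4 and S8 for members of 7 gene lists with a peak at any stage, with lines between lists in the order floral transition, SPL, shoot meristem, polarity, growth, meristem identity and organ identity, and grey cells where the list of that stage has no peak on the gene. Of the floral transition genes (top left), 8 have a value at S0, 4 at S4 and none at S8. LFY and SEP1 (bottom right) have a value at S4 and none at S0.

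The SPL genes that carry target sites of miR156, a microRNA that marks young plants, mostly had a peak at S0 and none at S4. Of 11 members, 9 had a peak at S0 or S4, and 7 of these had it at S0 only, where 23.9% of all genes with a peak did. They were SPL5 (percentile 65.1), SPL13B (49.2), SPL9 (42.4), SPL13A (41.3), SPL4 (35.1), SPL6 (19.7) and SPL3 (7.2). SPL3, SPL4 and SPL5 encode small factors that act in the floral transition, and SPL9 promotes both phase change and flowering. The summits on SPL13A and SPL13B lay on repeated sequence, where reads cannot be placed with certainty. SPL10 and SPL11 had a peak at S4 only, at 11.1 and 17.96. None of the 11 had a peak at S2, and 6 of the S0-only genes had a peak again at S8. With the shortened S0 list, 5 of the 7 kept their S0 peak.

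In the shoot meristem, STM, the KNOX homeobox gene that keeps meristem cells undifferentiated, had a peak at S0 only (49.2), as well as at S2 (59.1) and not at S8. Over the 7 genes of the shoot meristem list with a peak at both stages, changes ran from −26.6 to 8.89 points, with a median of −7.75. Of the related KNOX genes, KNAT1 had no peak at S0 or S4, and KNAT6 and KNAT2 had lower values at S4. KNAT6 fell from 77.3 to 50.7 and KNAT2 went from 74.2 to 50.7, a change of −23.5 that is inside the limit. The change of KNAT6 was −22.3 after ranking among shared genes and −15.6 by the summed product of fold enrichment and length, both inside the limit. BLR, a BELL homeobox partner of the KNOX factors, went from 94.7 to 73.0. The receptor kinases of CLAVATA signalling changed little. CLV1 was at 90.2 and 89.1, BAM1 at 96.9 and 89.8, and BAM2 at 92.1 and 84.4, while BAM3 had a weak peak at S0 only (8.1), which was lost with the shortened S0 list. WUS, the stem cell regulator, had no peak at any stage.

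The genes of organ polarity had changes in both directions. REV, a class III HD-ZIP gene that sets the upper side of organs, fell from 57.3 to 1.57 and was at 67.4 at S8. PHV, of the same family, fell from 57.9 to 28.97. PHB, closest in the family to PHV, rose from 18.8 to 53.1. ATHB-15 had a peak at S0 only (41.3). On the opposing side, KAN2, a KANADI gene that sets the lower side, fell from 43.0 to 0.587 and KAN3 had a peak at S0 only (23.6), which was lost with the shortened S0 list. AS1, which represses KNOX genes in lateral organs, stayed high at 98.4 and 94.3. The fall of PHV was inside the limit after ranking among shared genes (−20.3). By the summed product of fold enrichment and length, REV (−10.4), PHV (−19.8) and PHB (16.4) were all inside it.

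Of 12 regulators of organ initiation and growth with a peak at S0 or S4, 4 were S0-only (33.3%). NUB was the 1 S4-only member (8.33%). Over all genes with a peak, these shares were 23.9% and 6.54%. NUB, a zinc finger gene that acts with JAG in the growth of petals and stamens, had an S4 percentile of 78.0 and no peak at S0, S2 or S8. This peak, the stronger of 2 on NUB at S4, was 202 bp wide. Its summit lay 1669 bp downstream of the TSS, past the end of the gene. ANT, an AP2-domain gene that promotes organ growth, went from 57.2 to 77.6, a change of 20.4 that became 30.8 after ranking among shared genes. The growth-regulating factors differed from one another. GRF1 (AT2G22840), GRF2 (AT4G37740) and GRF3 had percentiles of 87.0 to 96.7 at S0 and 87.5 to 97.4 at S4. GRF4 fell from 43.3 to 2.49, a change of −8.77 by the summed product, and GRF5 (4.5) and GRF6 (20.8) had a peak at S0 only. AIL5 and AIL7, relatives of ANT, also had a peak at S0 only, at 35.4 and 6.5. With the shortened S0 list, GRF5, GRF6 and AIL7 lost their S0 peak. Of the boundary genes, LSH4 had a peak at S0 only (31.8) and LSH3 was at 99.3 and 93.6.

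Hormone genes changed in both directions. Of 8 auxin genes with a peak at both stages, 1 rose and 2 fell (25%), and of 8 gibberellin genes 2 fell (25%), against 21.7% falls among all shared genes. IAA4, an auxin-induced repressor, fell from 79.9 to 15.5, and ETT, an auxin response factor of the gynoecium, fell from 91.6 to 65.9. YUC6 and PIN3 had weak peaks at S0 only (3.9 and 7.0). Among the gibberellin genes, GID1C, a receptor, fell from 72.7 to 35.1 and RGL3, a DELLA repressor, fell from 79.4 to 35.007. The DELLA genes GAI and RGA were at 98.7 and 97.9 at S0 and at 99.1 and 99.7 at S4. ARR7, a negative regulator of cytokinin response, fell from 48.0 to 4.5, and ARR9 had a peak at S0 only (14.6). YUC6, PIN3 and ARR9 lost their S0 peak with the shortened S0 list. By the summed product of fold enrichment and length, IAA4 (−23.7), ETT (−4.83), GID1C (−15.4) and RGL3 (−10.4) were inside the limit.

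In the circadian clock list, 3 of 9 shared genes rose, against 10.1% of all shared genes. ELF3, a part of the evening complex, rose from 7.6 to 56.2, PRR3 from 14.6 to 55.1 and RVE6 from 12.5 to 52.9. These 3 genes had no S0 peak in the shortened S0 list. By the summed product their changes were 18.8, −5.36 and 24.9. GI had a peak at S0 only (49.2), and TOC1 (91.1 and 91.6) and LUX (90.8 and 97.2) changed little. In the list of wounding and stress genes, ERF5, an ethylene response factor, rose from 29.3 to 72.7, with a change of 19.3 by the summed product. The jasmonate repressors JAZ1 (68.0), JAZ10 (32.8) and JAZ5 (3.2) had a peak at S0 only, and CBF3, a cold response factor, at S4 only (2.9). JAZ5 lost its S0 peak with the shortened S0 list.

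Further list members past the limit were TCP3, a leaf and organ growth regulator (79.2 to 47.4), and EMS1, a receptor kinase of the anther (53.1 to 19.4). MAF3, a flowering repressor of the FLC clade, had a weak S4-only peak (0.587). AP2 and its relatives TOE1 and TOE2, which repress flowering, stayed inside the limit, with changes of 3.70, 9.31 and 1.19 points. With fold enrichment multiplied by peak length and summed over the gene, TOE1 turned to −46.3 and TCP3 (−0.0531) and EMS1 (−4.41) were inside the limit.

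Many of the strongest peaks on single-stage genes overlapped a peak of the other stage that had been given to a neighbour. SCR, for example, had an S0 percentile of 96.0, and its S0 peak overlapped an S4 peak at 80.1 on SUA. Genes with such an overlap are left out of the rankings that follow. Of the remaining S0-only genes, NSL1 had the highest percentile (95.04) and encodes a MACPF-domain protein that restrains cell death. It was at 38.3 at S2 and 5.7 at S8. DEG2, a chloroplast protease, followed at 90.6, then CSLA02, a glucomannan synthase (90.3), SAPX, a stromal ascorbate peroxidase (90.0), and AT2G21520, a Sec14-like protein (90.0). LSH1, a light-response gene of the same family as LSH3, was at 90.0, SMO2-1, a sterol methyl oxidase, at 88.3, and RPF2, a pentatricopeptide protein, at 88.1. AT5G19840 (89.5) and AT3G52580, a ribosomal protein gene (88.1), completed this set with AT1G58684 and AT5G50665, whose peaks lay on repeated sequence.

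Of the S4-only genes without such an overlap, AT5G24060, a pentatricopeptide gene, had the highest percentile (98.8) and no peak at S0, S2 or S8. Its S4 peak was narrow, 265 bp wide, with the summit at −430 bp from the TSS, upstream of the gene. FAR1, a transcription factor of far-red light signalling, was at 95.6, with a weaker peak at S8 (23.5). PEX6, an ATPase of peroxisome import, was at 89.8, with 44.6 at S2 and 72.5 at S8. The others were AT1G33490 (87.9), ECT6, a YTH-domain reader of RNA methylation (81.6), AT1G11320 (78.6), NUB (78.0), EX2, which acts in singlet oxygen signalling (77.8), AT2G35480 (77.6), AT5G16040 (76.0), BASS2, a plastid pyruvate carrier (74.1), and BBD1, a nuclease of basal defence (74.0), whose value AT5G23900 and EMB2745 share.

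The 10 largest falls ran from −90.3 to −81.6 points. AT3G01560 went from 93.8 to 3.5, and WRKY2, a factor of pollen and embryo development, from 93.2 to 3.9. MPK4, a mitogen-activated protein kinase of defence and cytokinesis, went from 91.2 to 7.7, MMZ2, a ubiquitin-conjugating enzyme variant, from 91.5 to 5.9, and GLN1.3, a cytosolic glutamine synthetase, from 95.4 to 12.8. AT3G02770, AT5G54980, AT3G16350 and NCRK, a receptor-like kinase, were the others with unique sequence, and AT1G58983 lay on repeated sequence. In each of the 10 genes, the S0 peak overlapped the S4 peak of the same gene. By the summed product of fold enrichment and length, AT3G01560 (−16.0) and GLN1.3 (−5.02) were inside the limit and NCRK turned to 4.28.

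The 10 largest rises ran from 84.8 to 73.5 points, and in 3 of them the S4 peak overlapped an S0 peak of a neighbouring gene. The S4 peak of AT1G13350 (99.9) overlapped an S0 peak at 99.9 that had been given to its neighbour AT1G13360, and that of AT3G18915 (85.3) an S0 peak at 87.4 on AT3G18930. The S4 peak of AT3G03170 (88.5) overlapped an S0 peak at 60.5 on AT3G03180. With the overlapping peak as the reference, 807 of the 817 rises and 1737 of the 1752 falls were still past the limit. The other rises had the same gene at both stages. Among them, U11/U12-31K, a protein of the minor spliceosome, went from 0.95 to 76.9, MBF1B, a transcriptional coactivator, from 2.0 to 76.2, and the ribosomal protein gene AT4G17390 from 2.8 to 80.3, with a change of 17.4 by the summed product. The remaining ones were AT3G54880, AT4G26580, AT4G18975 and AT1G05840.

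Motifs were counted on both strands in the 250 bases before each gene start. The CArG box, the site bound by MADS-domain factors, was found in 2.59% of S0-only genes (2.06 to 3.25%), 3.17% of S4-only genes (2.14 to 4.67%) and 2.52% of all protein-coding genes. TGGGCC was found in 20.6%, 20.1% and 13.7%, in 17.8% of shared genes and in 10.01% of genes with no peak at S0 or S4. It was therefore more frequent in genes with a peak, and the S0-only and S4-only shares could not be separated at these numbers. The S0-only share (19.2 to 22.2%) lay above that of shared genes (17.0 to 18.7%), with intervals that do not overlap. CACGTG, the G-box, was found in 8.11% of S0-only genes (7.15 to 9.18%) and 5.80% of S4-only genes (4.35 to 7.70%), with overlapping intervals, and in 6.49% of all genes. CACGTG reads the same on both strands. TATAAA, AAACCCTA and GAGAGAGA were also counted, and were found in 44.4%, 3.87% and 4.62% of shared genes. In genes with no peak at S0 or S4 the shares were higher, at 49.5%, 4.85% and 5.07%, with overlapping intervals for GAGAGAGA alone. A match is a stretch of letters and not a bound site.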

How the data were processed

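H3K27ac ChIP-seq peak lists of S0 and S4 were compared, with those of S2 and S8 as further readouts. Per the paper's methods and the submitters' processing notes, the authors aligned reads to TAIR10 with Bowtie 1.1.2, removed duplicates with Picard 2.60, called peaks with MACS2 2.1.0 against the combined inputs and kept peaks reproducible between replicates. The deposited lists give for each peak a fold enrichment (a ratio to the control) and the −log10 of its p and q values. These depend on depth, so they were ranked within a list and not compared as amounts. Reads with several places in the genome were kept at a single place by the authors, which can raise peaks on repeated sequence.

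Peaks were given to genes of the RefSeq annotation of TAIR10.1 by the summit and the nearest TSS. Repeated sequence means that at least 50% of the 32-base words in 201 bases around the summit occur elsewhere in the genome. Members of 17 gene lists (225 genes, all matched by identifier) and 4 sets read from product names were examined. Named genes are the 12 S0-only and 12 S4-only genes of highest percentile without overlap with the other list, the 10 largest rises and falls, all members of the 3 lists of floral transition, meristem identity and organ identity, and other list members of a single stage or past the limit of 25 points. A few list members inside the limit were named after their values were seen. Members and lists were chosen with earlier results of these data known. Assignment, percentiles, joining and overlap were tested on simulated data. Python 3.11.15, NumPy 2.4.6, pandas 2.3.3, SciPy 1.17.1 and matplotlib 3.10.9 were used. A result of 1 gene that the rule would name is not reported here.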

Additional observations from a re-analysis of the deposited data

How the results depend on the processing

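The pooled lists have no replicates, so that no replicate could be left out. No paired analysis was possible because each stage is a single pooled list and the result comes from no test. Assignment by gene body or peak midpoint, joining within 500 bp, overlap of 1 bp or a reciprocal 50%, percentiles among the strongest peaks of genes, by −log10 p or by the product of fold enrichment and length summed over a gene, and, chosen after the data were seen, leaving out repeated sequence or using the overlapping peak, moved each count they apply to by less than 1.5 times. With a −log10 q of at least 20 there were 496 S4-only genes, 4172 shared genes and 379 rises. With the S0 list shortened there were 1597 S0-only genes, 1635 S4-only genes and 1151 falls. Limits of 15 and 40 points gave 1457 and 310 rises and 2704 and 823 falls. Ranking among shared genes, also chosen after the data were seen, gave 1280 rises. Of 88 named genes with a peak at both stages, 44 changed side of the limit under at least 1 alternative. AT3G18915 reversed to −2.08 by peak midpoint, and NCRK to 4.28 and PRR3 to −5.36 by that product. The cause was not tested. A gene without a peak may carry signal below the authors' threshold.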

Other observations

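Of 353 genes with a ribosomal protein product name (compartments not separated), 242 had a peak at both stages, with a median change of −1.65 points, 26 rises (10.7%) and 45 falls (18.6%). Over all shared genes the median change was −4.46, with 10.1% rises and 21.7% falls. Of 53 genes of the photosystems and light harvesting, 38 had a peak at both, with a median change of −3.09, 4 rises (10.5%) and 8 falls (21.1%). LHCB4.3, an antenna protein of photosystem II, fell from 60.5 to 1.4, while LHCB6 rose from 27.9 to 69.9, and PSAG of photosystem I had a peak at S4 only (94.7), which overlapped an S0 peak at 65.8 on AT1G55673. Of 23 core histone genes with a peak at S0 or S4, 19 had it at both, against 69.5% of all genes with a peak. Of these 19 genes, 1 rose (5.26%) and 2 fell (10.5%). H2AXA fell from 54.5 to 3.0 and HTA12 rose from 13.4 to 47.6. Of 81 genes whose product name mentions a cyclin or its kinase, 23 had a peak at both stages, with 2 rises (8.70%) and 3 falls (13.0%). Among them, CDC2 (AT3G48750), the main kinase of the cell cycle, fell from 83.4 to 4.3, and CYCA3;2, an A-type cyclin, rose from 3.7 to 46.4.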
